A study of Homo sapiens with 4 samples.

Results

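Of the 28775 genes in the count table, 9 are described here. They encode enzymes that make asparagine, cysteine, proline, alanine and glutamine, together with the phosphoenolpyruvate carboxykinases: ASNS, CBS, CTH, PYCR1, ALDH18A1, GPT2, GLUL, PCK2 and PCK1. They were chosen by name and in part from their own readout, because ASNS, CTH and PCK2 were higher in cells without intact MORC2. All 9 were found, 8 passed the filter on low counts, and PCK1 did not. Their differences between the genotypes are therefore a description. Where the calls that these genes received in the fit over all genes are given, they restate the contrast that chose the genes and support nothing.

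These enzymes supply amino acids that a cell can also take up from its medium. When an amino acid runs short, uncharged tRNA activates the kinase GCN2, translation of the transcription factor ATF4 increases, and ATF4 binds composite C/EBP-ATF elements in target genes such as ASNS. Transsulfuration moves sulfur from homocysteine to cysteine, glutamate is the carbon source of proline, and PCK2 converts mitochondrial oxaloacetate to phosphoenolpyruvate.

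RNA-seq of polyadenylated RNA was performed on HEK293T cells, a human embryonic kidney line that carries the SV40 large T antigen. There were 2 MORC2 KO and 2 WT samples, and no treatment is described beyond the editing of the MORC2 KO cells. MORC2 KO replicate 1 was edited with knock-out guide 1 and replicate 2 with guide 2, so guide and replicate cannot be told apart. Cas9 protein and guide were delivered by electroporation and the edited cells were kept as bulk populations, not single clones, per the methods of the study. These methods describe no mock or non-targeting electroporation of the WT cells, so the editing procedure and the genotype cannot be told apart. The methods of the study call the WT replicates and the KO cell lines independent, but the sources do not say whether the WT replicates were separate cultures, so p-values measure only the spread between these samples, which may be technical. MORC2 encodes a GHKL-type ATPase that compacts DNA in vitro, per the study.

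Total counts per library were between 53970043 and 64312514. MORC2 itself had 3064 counts in MORC2 KO replicate 1 and 3637 in replicate 2, whereas the WT libraries had 5131 and 4669. Its RNA fell by 0.71 on the log2 scale (SE 0.06, edgeR quasi-likelihood test, adjusted p = 0.000137), and 23.3% of its exonic bases are shared with MORC2-AS1 on the opposite strand. The mRNA was thus still present in both MORC2 KO libraries. The study assessed the knock-out on protein, by western blot of the cells from both guides, and protein was not measured here. All 8 listed HEK293T markers were detected and none was called (lowest edgeR adjusted p 0.118). Their summed level was 712.5 to 741.1 CPM (counts scaled to a common library size) in MORC2 KO and 699.9 to 730.7 in WT. Most of that sum was VIM, with 554 to 584.9 CPM in MORC2 KO and 547.4 to 574.9 in WT. Both MORC2 KO libraries lay above both WT libraries for 3 of the 8 markers and below them for 2. The shares over all tested genes were 24.1% and 23.4%. Summed markers of blood cells were between 1.05 and 1.38 CPM, those of endothelium between 0.167 and 0.284, those of hepatocytes between 0.219 and 0.409 with SERPINA1 at 0, and those of fibroblasts between 3.06 and 4.05 with COL1A2 at 0. The blood cell sum was higher in both MORC2 KO libraries (1.27 and 1.38) than in both WT libraries (1.21 and 1.05). So was the hepatocyte sum (0.3345 and 0.409 against 0.219 and 0.319), while the endothelial sums overlapped. The fibroblast sum was lower in both MORC2 KO libraries (3.06 and 3.28) than in both WT libraries (3.78 and 4.05). It was nearly all COL1A1, which was not called (edgeR adjusted p = 0.371), while DCN and LUM had 0 to 3 counts per library. The part of these sums in any result was not tested. In bulk RNA, fewer cells that express a gene and less RNA per cell cannot be told apart.

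The proximal promoters of the 3 genes called higher are shown because ASNS is a textbook ATF4 target. They are the 100 bases before the RefSeq transcription start (GRCh38.p14), written 5′ to 3′ on the strand of the gene, and capitals mark a match to TGATGNAA, the core of the C/EBP-ATF composite element.
ASNS, chr7:97872409-97872508, minus strand: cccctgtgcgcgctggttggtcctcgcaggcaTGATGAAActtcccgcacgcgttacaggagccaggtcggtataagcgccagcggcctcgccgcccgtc
CTH, chr1:70411168-70411267, plus strand: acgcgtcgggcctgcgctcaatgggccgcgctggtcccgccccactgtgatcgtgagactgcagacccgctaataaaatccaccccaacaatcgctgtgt
PCK2, chr14:24094211-24094310, plus strand: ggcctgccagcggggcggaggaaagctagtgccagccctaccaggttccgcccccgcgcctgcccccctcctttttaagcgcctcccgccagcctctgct
The match in ASNS read TGATGAAA and lay at positions -68 to -61 from the start. Both strands of the RefSeq windows, from 250 bases before to 50 bases after each start, were searched. RefSeq promoters were at hand for 6 of the 9 genes (ASNS, CTH, CBS, PCK2, ALDH18A1 and GLUL), and the letters occurred in 1 of the 2 promoters of ASNS and in no window of the other 5 genes. Over all 35116 promoters, 3.62% held them. A match or its absence describes the letters in this window and says nothing of binding.

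ASNS, asparagine synthetase, transfers the amide of glutamine to aspartate. The gene has 15 exons at chr7:99081731-99158507 on the minus strand (T2T-CHM13v2.0, the build of the count table, for this and all further gene positions). ASNS counts were 1635 and 2106 in MORC2 KO replicates 1 and 2, and 1372 and 1158 in the WT replicates. On the CPM scale after TMM scaling, a correction for RNA composition, these were 27.4, 31.9, 23.1 and 21.8. Both MORC2 KO libraries lay above both WT libraries, and the WT mean of 22.4 ± 0.919 CPM (SD, n = 2) compared with 29.6 ± 3.20 (SD, n = 2) for MORC2 KO. The log2 fold change was 0.40 (SE 0.08), a ratio of 1.32. A large part of the ASNS sequence could not be counted for ASNS alone: 69.5% of its exonic bases (2247 of 3233) also belong to CZ1P-ASNS, a same-strand readthrough gene, and read pairs that fall on more than 1 gene were left out. CZ1P-ASNS had 113, 155, 121 and 98 counts in the same order, its groups overlapped, and its log2 fold change of 0.13 did not pass the test (adjusted p = 0.783). ASNSP1, a pseudogene of ASNS named after its values were seen, had 859 and 881 counts in MORC2 KO, with 618 and 534 in WT (log2 fold change 0.44, SE 0.09, edgeR adjusted p = 0.0478). Since multi-mapping reads were counted, how reads were divided between ASNS and this copy was not tested.

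Transsulfuration runs through CBS and then CTH. CBS, cystathionine beta-synthase, joins homocysteine and serine, and its gene has 20 exons at chr21:41444310-41467989 on the minus strand. CBS had the highest counts of the 9 genes, 28835 and 34504 in MORC2 KO against 26685 and 24320 in WT, or 482.3, 522.2, 448.4 and 456.9 CPM. Both MORC2 KO libraries were above both WT libraries, but the log2 fold change of 0.15 (SE 0.07) was not called. CTH, cystathionine gamma-lyase, cleaves cystathionine to cysteine and has 12 exons at chr1:70289775-70318361 on the plus strand. CTH had 5452 and 6457 counts in MORC2 KO, with 4503 and 4039 in WT, and the levels were 91.2, 97.7, 75.7 and 75.9 CPM. The WT libraries were nearly equal, with a mean of 75.8 ± 0.150 CPM (SD, n = 2), and MORC2 KO lay above them at 94.5 ± 4.63 (SD, n = 2). The log2 fold change of CTH was 0.32 (SE 0.06), a ratio of 1.25.

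Proline synthesis from glutamate starts with ALDH18A1, delta-1-pyrroline-5-carboxylate synthase, and ends with a pyrroline-5-carboxylate reductase, of which PYCR1 is a mitochondrial form. These consecutive steps differed in sign. ALDH18A1 (chr10:96485079-96535811, minus strand, 18 exons) had 241.6 and 227.4 CPM in MORC2 KO, with 242.3 and 255.7 in WT, so that both MORC2 KO libraries lay below both WT libraries, replicate 1 by a narrow margin. Its log2 fold change was -0.09 (SE 0.06) and was not called. PYCR1 (chr17:82799550-82804459, minus strand, 7 exons) had 110.5 and 115.4 CPM in MORC2 KO, with 98.6 and 104.9 in WT. Its groups did not overlap either, in the other direction, with a log2 fold change of 0.15 (SE 0.06) that was not called. PYCR3, the cytosolic reductase, had 37.6 and 38.1 CPM in MORC2 KO, with 39.6 and 42.6 in WT (log2 fold change -0.12, SE 0.06, adjusted p = 0.401).

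GPT2, the mitochondrial alanine aminotransferase (chr16:52681247-52728152, plus strand, 13 exons), had 131.8 and 143.0 CPM in MORC2 KO, with 119.0 and 122.7 in WT. Both MORC2 KO libraries were above both WT libraries, and the log2 fold change was 0.19 (SE 0.06). GLUL, glutamine synthetase, makes the amide donor that ASNS uses, and has 9 exons at chr1:181737671-181751363 on the minus strand. Its levels of 247.6 and 245.2 CPM in MORC2 KO, with 244.4 and 254.7 in WT overlapped, and its log2 fold change of -0.02 (SE 0.06) was smaller than its error and took the opposite sign under other scalings (0.021 with library size alone, 0.043 with loess offsets).

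PCK2, the mitochondrial phosphoenolpyruvate carboxykinase, had the largest difference of the 8 tested genes. The gene has 10 exons at chr14:18292625-18302437 on the plus strand and shares no exonic base with another gene. Its counts were 2188 and 2962 in MORC2 KO replicates 1 and 2, with 1674 and 1516 in the WT replicates, or 36.6, 44.8, 28.1 and 28.5 CPM. The WT libraries were close together at 28.3 ± 0.248 CPM (SD, n = 2), while the MORC2 KO libraries, at 40.7 ± 5.82 (SD, n = 2), were apart from WT and from each other. The log2 fold change was 0.53 (SE 0.09), a ratio of 1.44. PCK1, the cytosolic form (chr20:59338907-59345912, plus strand, 10 exons), had 3 and 0 counts in MORC2 KO, with 0 and 2 in WT, at or under a floor of 3 counts, which is between 0.0454 and 0.0564 CPM depending on the library. No fold was computed for it, and a difference in PCK1 was not detectable at this depth.

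**Figure D1:**
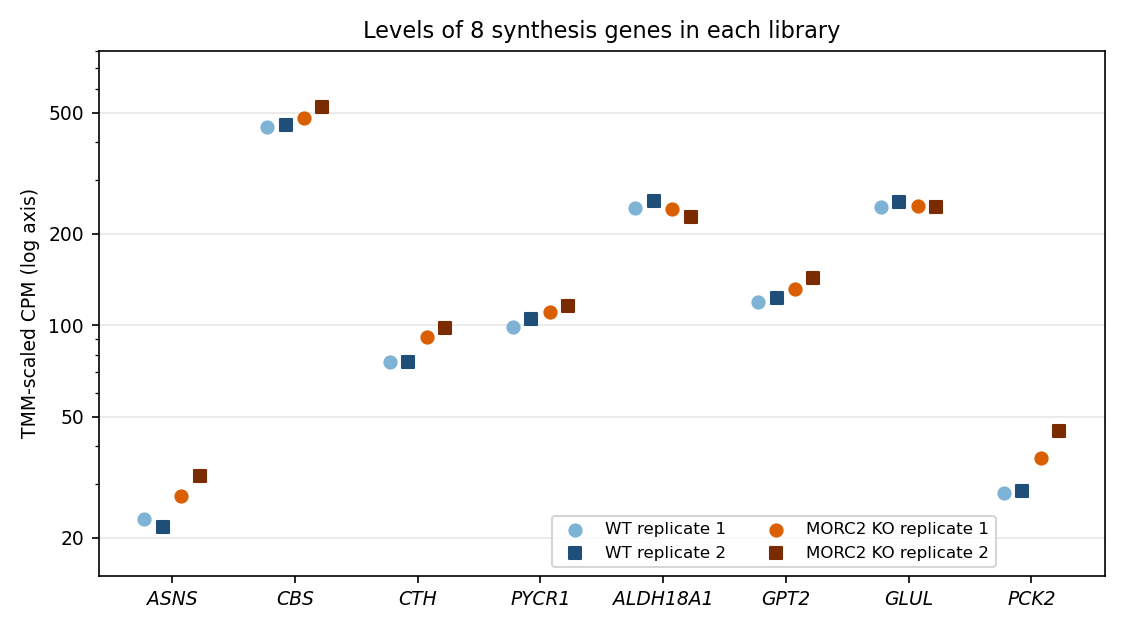
TMM-scaled CPM (log axis) of the 8 tested genes in each of the 4 libraries, 1 point a library. PCK2 lay at 28.1 and 28.5 CPM in WT and at 36.6 and 44.8 in MORC2 KO, while the points of GLUL were interleaved between 244.4 and 254.7.

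Of the 8 tested genes, 3 were called higher at an adjusted p under 0.05 (ASNS, CTH and PCK2) and 0 lower by edgeR, and DESeq2 called the same 3 and 0 lower. At an unadjusted p under 0.05, 6 were higher and 0 lower, against 8.14% and 6.17% of all tested genes. Over all 16675 tested genes 0.588% were called higher and 0.03% lower, and since this contrast chose the genes nothing is read from the difference. The adjusted p just inside the threshold was that of ASNS, 0.0482, and just outside was that of GPT2, 0.231 (both edgeR). Both MORC2 KO libraries lay above both WT libraries for 6 of the 8 genes, against 24.1% of all tested genes, and below them for 1, ALDH18A1, against 23.4%. The median log2 fold change was 0.17 over the 8 genes and 0.01 over all tested genes. Calls moved when 1 library was left out, in fits where the other genotype alone gives the spread and the lone library is assumed to vary like it. Without WT replicate 2 only PCK2 was called, without WT replicate 1 ASNS and PCK2, without MORC2 KO replicate 1 all 6 genes with a positive change, and without MORC2 KO replicate 2 the same 3 genes as with every library. The log2 fold change of CTH was 0.32 in both fits in which it was not called (0.315 without WT replicate 1, 0.320 without WT replicate 2), and that of ASNS was 0.36 without WT replicate 2. ASNS was also not called with a minimum of 10 counts (log2 fold change 0.41, adjusted p = 0.0555), with loess offsets (0.38, adjusted p = 0.0613) and with the newer form of the edgeR test (0.40, adjusted p = 0.0506), so its fold moved little while its p crossed the threshold.

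Each MORC2 KO library was then set against the WT mean on the log2 CPM scale. The same 3 genes exceeded the WT mean by 0.25 or more in each library. For PCK2 the difference was 0.37 in replicate 1 and 0.66 in replicate 2. ASNS differed by 0.29 and 0.51, and CTH by 0.27 and 0.37. The step between the MORC2 KO libraries was widest for PCK2, 0.29, and reached 0.22 for ASNS and 0.10 for CTH, whereas the WT libraries differed by 0.02, -0.08 and 0.00 (replicate 2 minus replicate 1). Of all tested genes, 10.7% passed this fold in replicate 1, 20% in replicate 2 and 7.6% in both. GPT2 came nearest without passing, at 0.13 and 0.24, followed by CBS at 0.09 and 0.21 and PYCR1 at 0.12 and 0.18. For all 8 genes, ALDH18A1 and GLUL included, replicate 2 was farther from the WT mean than replicate 1, and 69.1% of all tested genes had that order. MORC2 itself was lower in replicate 1 (51.2 CPM) than in replicate 2 (55.0 CPM), against 86.2 and 87.7 in WT.

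**Figure D2:**
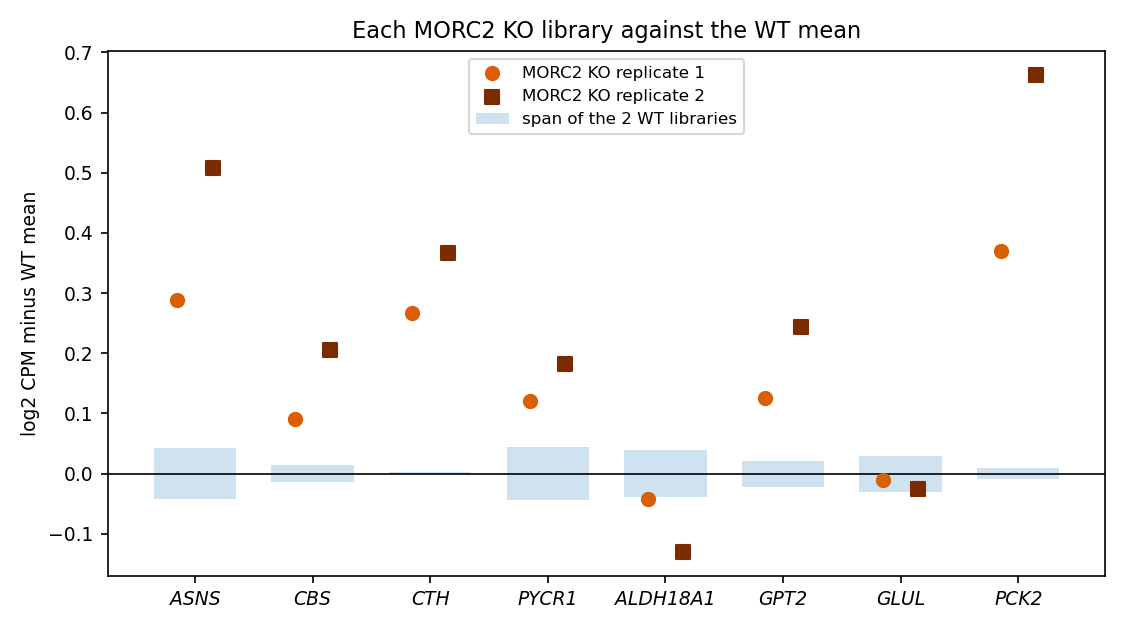
Difference of each MORC2 KO library from the WT mean (log2 CPM), with circles for replicate 1, squares for replicate 2 and a bar for the span of the 2 WT libraries. Replicate 2 was farther from 0 than replicate 1 for all 8 genes, from GLUL, inside the WT span, to PCK2 at 0.37 and 0.66.

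Levels of different genes were compared as CPM per kb of exon. In WT the order was CBS (132.8), ALDH18A1 (68.5), PYCR1 (44.8), CTH (36.3), GLUL (30.9), GPT2 (26.9), PCK2 (9.04), ASNS (6.93) and PCK1 (0.00436). The 2 WT values of each gene did not overlap those of the next in that order. The place of ASNS rests on its shared bases. With its whole CPM divided by its 986 unshared bases alone, the WT mean was 22.7 CPM per kb, which falls between GPT2 and PCK2. Reads over those bases were not counted separately, so this is a rescaling and not a measured level. In MORC2 KO, CTH was at 43.6 and 46.8 CPM per kb and PYCR1 at 48.7 and 50.9.

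Shares within an enzyme group show how the related genes were balanced. CTH made up 23.6% and 23.4% of the summed CPM per kb of CBS and CTH in MORC2 KO, and 21.6% and 21.3% in WT. The sum of both genes was 185.1 CPM per kb in MORC2 KO replicate 1 and higher in replicate 2, against 167.8 and 170.3 in WT. CTH was chosen because it was higher in MORC2 KO, so its larger share there restates that choice. GPT2 provided 91.4% to 93.1% of the alanine aminotransferase signal with overlapping groups, and GPT, its cytosolic counterpart, had a log2 fold change of 0.16 (SE 0.15, adjusted p = 0.657). PCK2 made up at least 99.9% of the carboxykinase signal in every library. With 2 samples against 2, an exact two-sided permutation test of such a share cannot go below p = 0.333, so none was run.

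**Figure D3:**
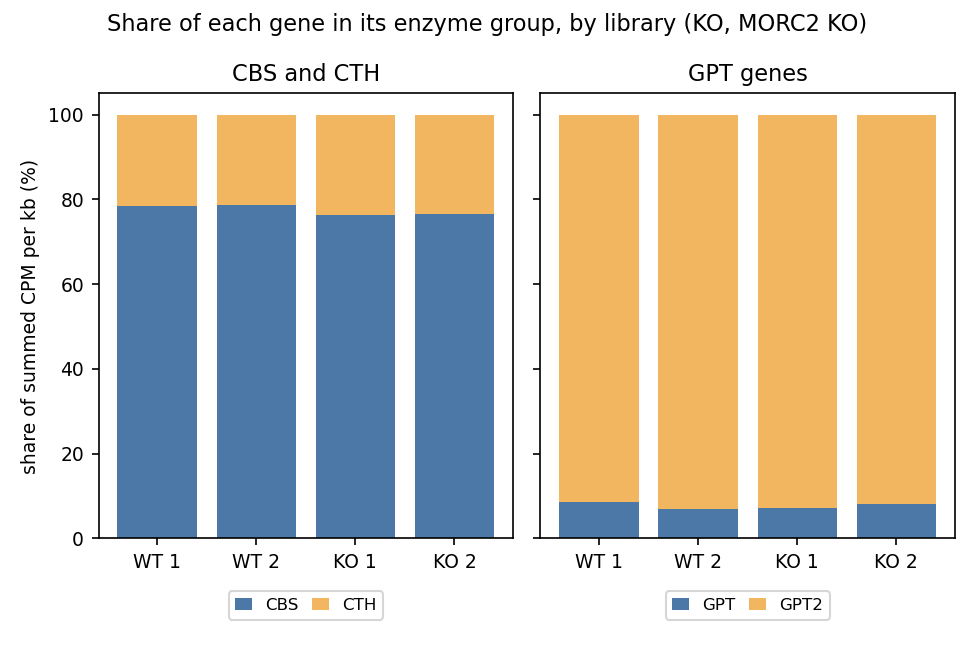
Stacked bars give the share of each gene (%) in the summed CPM per kb of its enzyme group, for each WT and MORC2 KO (KO) library. The CTH band is 21.3% to 21.6% high in WT and 23.4% to 23.6% in MORC2 KO, and the GPT2 band is 91.4% to 93.1% high over the 4 libraries. CTH was chosen because it was higher in MORC2 KO.

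The other enzymes of these pathways were described from 5 lists that hold 67 genes, of which 52 were tested. By edgeR and by DESeq2, 0 were called in either direction. Over all 16675 tested genes edgeR called 0.588% higher and 0.03% lower, and DESeq2 called 115 higher and 17 lower. At such shares nothing is read from a count of 0 among 52 genes. At an unadjusted p under 0.05, 2 were higher and 1 lower, where the shares over all tested genes were 8.14% and 6.17%. A positive log2 fold change was found for 16 of the 52, against 51.5% of all tested genes, and the median was -0.05 against 0.01. Loess offsets, which adjust for gene level, moved CBS from 0.15 to 0.231 and ALDH18A1 from -0.087 to -0.026, but ASNS from 0.403 to 0.384. The part of gene level in the list medians was not tested. The asparagine and aspartate list (5 of 7 tested) had a median of -0.07, the methionine, cysteine and glutathione list (16 of 20) -0.01, the proline and ornithine list (7 of 9) -0.12, the glutamine, glutamate and alanine list (13 of 14) -0.02, and the list of phosphoenolpyruvate and neighbouring steps (11 of 17) -0.07. The 3 genes at an unadjusted p under 0.05 are named after their values were seen. ASS1, argininosuccinate synthase, which uses aspartate, had 16.8 and 20.3 CPM in MORC2 KO, with 15.5 and 14.96 in WT (log2 fold change 0.28, SE 0.09, adjusted p = 0.231). BCAT1, a cytosolic branched-chain aminotransferase, had a log2 fold change of 0.16 (adjusted p = 0.33), and ASRGL1, which hydrolyses asparagine, one of -0.14 (adjusted p = 0.339). The largest log2 fold change of the lists, 0.57 for BHMT (also named after its value was seen), rested on 13 and 12 counts against 8 and 7.

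A sixth list held 6 regulators of the amino acid response, all tested, and 0 were called by either tool. With 0.588% of all tested genes called higher and 0.03% lower by edgeR, nothing is read from that count. ATF4 had 863.3 and 824.0 CPM in MORC2 KO, with 836.2 and 856.1 in WT, so its groups overlapped, and its log2 fold change was 0.00 (SE 0.07, adjusted p = 0.983). These are mRNA levels, and ATF4 is known to be set mainly by translation, which was not measured here. The others of this list were named after their values were seen. CEBPB, CEBPG and TRIB3 passed only an unadjusted p under 0.05, as 8.14% of all tested genes did in this direction, with log2 fold changes of 0.17, 0.15 and 0.21 and adjusted p from edgeR of 0.254, 0.286 and 0.277. DDIT3, which encodes CHOP, had a log2 fold change of 0.02 with overlapping groups (adjusted p = 0.933). EIF2AK4, which encodes GCN2, had one of -0.07 (edgeR adjusted p = 0.568). For 3 of the 6 regulators (CEBPB, CEBPG and TRIB3) both MORC2 KO libraries lay above both WT libraries, and for 1 (EIF2AK4) below them. Over all tested genes these shares were 24.1% and 23.4%. CEBPB and CEBPG encode C/EBP factors, and TRIB3 a pseudokinase that is itself an ATF4 target.

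**Figure D4:**
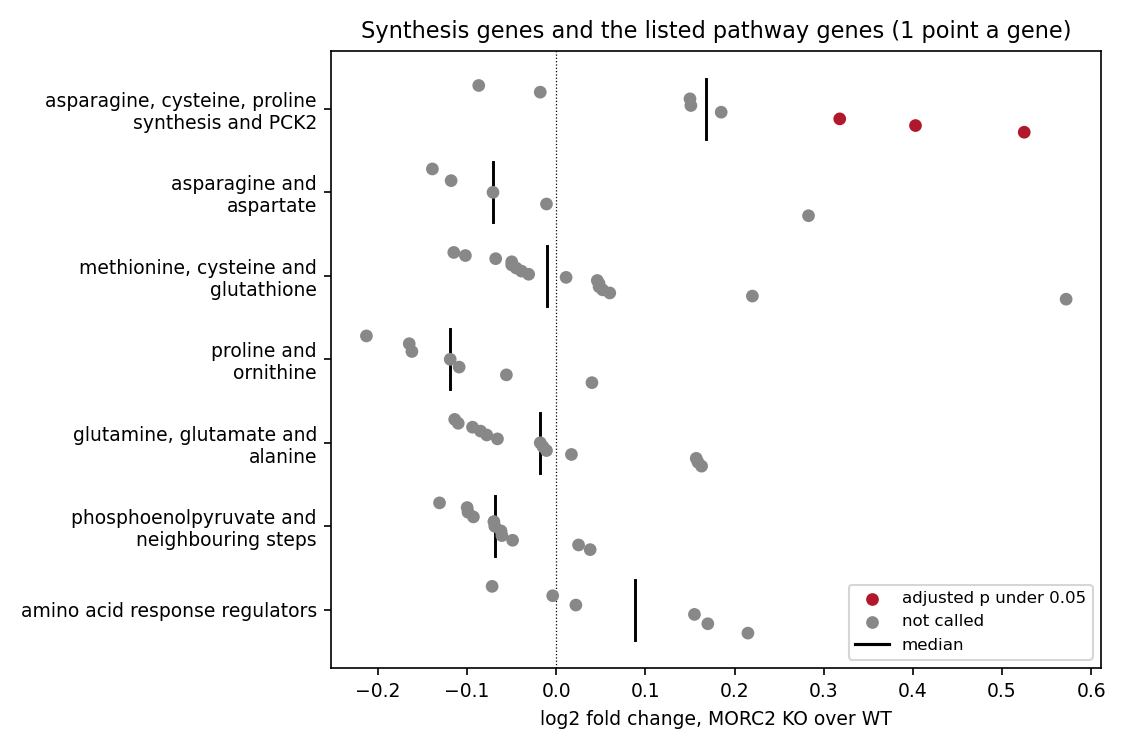
Log2 fold change (MORC2 KO over WT) of each tested gene, by list, with the median as a black line and genes with an adjusted p under 0.05 in red. The 8 synthesis genes in the top line, chosen in part for this value, have a median of 0.17, and the lists under it, in which 0 genes were called, have medians from -0.12 to 0.09. Of all tested genes, edgeR called 0.588% higher and 0.03% lower.

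The genes whose pattern over the 4 libraries was most like that of ASNS, CTH or PCK2 were found by Euclidean distance of log2 CPM, centred on the WT mean, among 13574 genes. Nearest to ASNS were ZNF404 (distance 0.027), LOC100287808 (0.033) and OSER1-DT (0.042). Those nearest to CTH were BBC3 (0.019), which encodes the BCL2 family protein PUMA, ZNF33B (0.031) and PCYOX1L (0.031). KCNA3 (0.017), a voltage-gated potassium channel, SP6 (0.047) and SNORA8 (0.047) were nearest to PCK2. Of these genes only ZNF33B was called (edgeR adjusted p = 0.0477), and the adjusted p of the others ranged from 0.118 to 0.43. LOC100287808, SP6 and SNORA8 had only 48 to 130 counts per library. No enzyme of the lists was among the 9 nearest genes. Among the members, ASNS and CTH were 0.156 apart, ASNS and PCK2 0.189, and CTH and PCK2 0.314. Of the genes searched, 1.35%, 2.22% and 17.4% lay closer to the first-named gene of the pair. The nearest genes were picked as the closest of 13574, so their smaller distances are no comparison for these pairs.

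Genes within 100 kb of the 9 loci were also examined. There were 60 such genes, 44 were tested and 0 were called by edgeR. Over all tested genes 0.588% were called higher and 0.03% lower. A count of 0 among 44 genes is near those shares, and nothing is read from it. Beside PCK2, 14 neighbours were tested, with log2 fold changes from -0.07 to 0.63 and a lowest adjusted p of 0.125 (edgeR). The 3 tested neighbours of CTH ranged from -0.09 to 0.59 (lowest adjusted p 0.565), and the 2 of ASNS from 0.02 to 0.13 (lowest 0.783).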

How the data were processed

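RNA counts per gene of 4 HEK293T libraries were deposited by the authors. Paired-end reads had been aligned to T2T-CHM13 with Subread (version 2.0.6) and counted with featureCounts (version 2.0.6) on RefSeq genes, without strand and with multi-mapping reads, per the file headers and labels, so antisense partners, pseudogenes and overlapping genes are uncertain. Counts were analysed in R 4.3.3 with edgeR 4.0.16: filterByExpr kept 16675 of 28775 genes, followed by TMM scaling and a quasi-likelihood test of MORC2 KO against WT over all of them, with Benjamini-Hochberg adjustment and a threshold of 0.05. A prior count of 2 was used for log2 CPM. DESeq2 1.42.0 and other settings were alternatives. With 2 samples per genotype, p-values measure only the spread between these samples. The members and lists were chosen with earlier results of these data known. Genes named are the members, MORC2, ATF4, related isozymes, any called list gene and the 3 genes nearest to each called member by distance. One related gene, and the shares that need it, are not reported here. Other named genes are cell type markers, are marked as named after their values were seen, or overlap a member or MORC2.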

Additional observations from a re-analysis of the deposited data

How the results depend on the processing

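Over all genes, the calls (98 higher, 5 lower) came to 463 and 182 with no filter on low counts, to 237 and 42 with the replicate number as a replicate block, and to between 88 and 1397 higher and 9 and 2117 lower when 1 library was left out, the highest both without MORC2 KO replicate 1 (1397 and 2117). DESeq2 called 17 lower and loess offsets 8. Among the synthesis genes the count of 3 higher ranged from 1, without WT replicate 2, to 6, without MORC2 KO replicate 1, and 0 were lower throughout. The replicate block left ASNS, CTH and PCK2 called, and PCK2 was called in every setting run. The labels link same-numbered samples by their number alone, and the deviations of these samples from the group means correlated at -0.124 over 16675 genes. Whether they share anything else was not tested. A crossed replicate block, chosen after seeing the data, called 903 higher and 809 lower over all genes, 5 synthesis genes higher, and 5 pathway genes higher and 1 lower. Of the pathway genes, 1 (ASS1) was called higher with no filter, and leaving out a library gave 0 to 4 higher and 0 to 12 lower, the highest both without MORC2 KO replicate 1. With library size alone, 5 synthesis genes passed the fold in MORC2 KO replicate 2 instead of 3. The log2 fold change of GLUL reversed to 0.021 with library size alone and 0.043 with loess offsets, and ranged from -0.049 (without WT replicate 1) to 0.012 (without WT replicate 2) when 1 library was left out. Without length scaling, the shares in MORC2 KO and WT were 96.7% and 96.6% for GPT2 and 84.2% and 85.7% for CBS. Where calls moved, the cause was not tested. PCK1, at 0 to 3 counts per library, is limited by depth.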
